A study of Mus musculus with 9 samples.

Results

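Dorsal root ganglia (DRG) were compared with lumbar spinal cord by RNA sequencing in mice that had received the chemotherapy drug paclitaxel (PTX) and an antagonist of the lymphotoxin-beta receptor (LTβR). The compared samples were the 3 whose titles end in DRG and the 3 whose titles end in Spine, which is 6 of the 9 samples in the series. The other 3 samples are punches of hind paw skin and entered only the shared estimate of the spread. All mice were C57 males aged 8 to 12 weeks. PTX was given intraperitoneally at 2 mg/kg in 2 injections, and the antagonist was given at 15 µg per site into the hind paw (intraplantar) and the spinal canal (intrathecal). The sample titles place the antagonist on days 1 and 4, whereas the series text places it between the PTX injections and the day after them. The treatment label of every sample also lists IgG at 10 µg per site, which the series text assigns to control mice. DRG of L3 to L5 from both sides and the lumbar cord were taken 6 days after the last PTX injection. Both groups therefore carried the same treatment, and control mice are not analysed here. Every difference is one between the tissues as dissected, and can include transcripts of other tissues taken with them. Whether each sample is 1 mouse or a pool is not in the labels, and the p-values measure only the spread between these samples, which may be technical.

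A DRG holds the cell bodies of the primary sensory neurons, which send one branch to skin, muscle and viscera and another into the spinal cord. These neurons are wrapped by satellite glia, their axons are myelinated by Schwann cells, and their transmitter is mainly glutamate, in many small-diameter neurons together with peptides. The spinal cord holds the neurons that receive this input, excitatory and inhibitory interneurons and the motor neurons, with oligodendrocytes, astrocytes, ependymal cells and microglia as its glia. Comparing the pair shows which of these transcripts each tissue holds.

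Reads assigned to genes ranged from 21316707 to 23229724 in the DRG samples and from 16952637 to 21540977 in the spinal cord samples. At that depth 3 reads, taken here as the limit of detection, equal 0.134 to 0.172 CPM, the count scaled to the total of the sample, and intervals and limits cover counting error only. Levels are given as mean CPM ± SD of 3 samples, or as 3 values per tissue in the order of samples 1 to 3. Differences are log2 fold changes of DRG minus spinal cord. The ± beside them is the absolute difference over the square root of the test's F statistic, an approximate standard error. Where a tissue has few reads it can be smaller than the counting error, so it understates the uncertainty of such differences. A called gene has an adjusted p under 0.05 (edgeR quasi-likelihood test with Benjamini-Hochberg adjustment). Of 22609 genes 16091 were tested. The tissues are so unlike that 59.6% of all tested genes were called (29.0% higher in DRG and 30.6% lower). The median log2 difference over all tested genes was −0.023, with quartiles of −0.544 and 0.542. A share of called members near these values says nothing particular about a list. The DRG and cord samples did not overlap for 64.5% of tested genes, so a lack of overlap alone says little about a gene. In bulk tissue, fewer cells of a type and less RNA per cell cannot be told apart.

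Differences above 16-fold were more often in the direction of the cord, with 252 genes higher and 439 lower in DRG. No read was found in any spinal cord sample for 43 of the genes higher in DRG, and none in any DRG sample for 59 of the lower ones. The defining markers followed the labels. All 12 sensory neuron markers were called higher in DRG. Of 12 oligodendrocyte markers 11 were lower in DRG and none higher. Of 12 astrocyte and ependymal markers 11 were lower, with S100b higher, and of 12 Schwann cell markers 10 were higher and 1 lower.

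**Figure D1:**
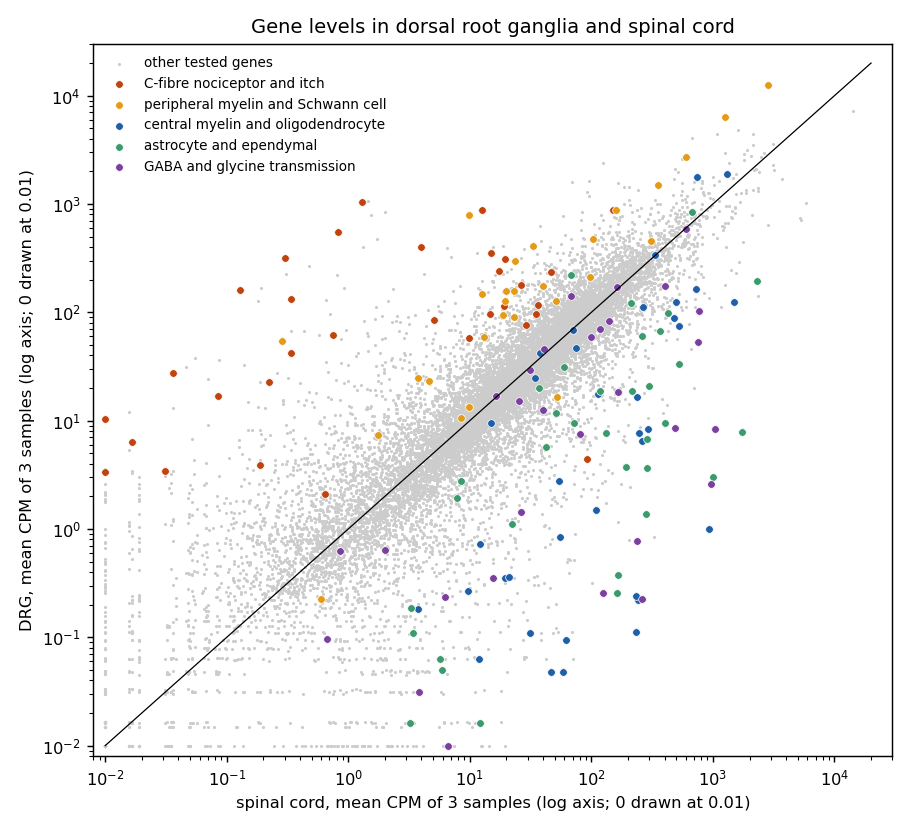
Mean level of each tested gene in spinal cord (horizontal axis) and DRG (vertical axis) in CPM on log axes, 3 samples per tissue, with 5 gene lists in colour and the line of equal levels in black. Most nociceptor and Schwann cell genes lie above the line and most genes of oligodendrocytes, astrocytes and inhibitory transmission below it.

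Some samples stood apart in ways that touch the comparison. Spinal cord sample 3 held the most transcripts of the Schwann cell and connective tissue lists among the cord samples. The summed level of the Schwann cell list was 33017, 24768 and 26197 CPM in DRG and 3922, 4130.5 and 10195 CPM across cord samples, and 25 of its 28 members were highest in sample 3 among the cord samples. The connective tissue list summed to 13892, 9725 and 10391 CPM in DRG and 4444, 4638 and 6848 CPM across cord samples. Skeletal muscle genes varied most among the DRG samples, with a sum of 1039.8, 1622 and 158 CPM in DRG and 450.1, 433 and 329 CPM across cord samples. Red cell and marrow genes were high in spinal cord sample 1, with a sum of 354, 652 and 275 CPM in DRG and 1606, 359 and 472 CPM across cord samples.

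**Figure D2:**
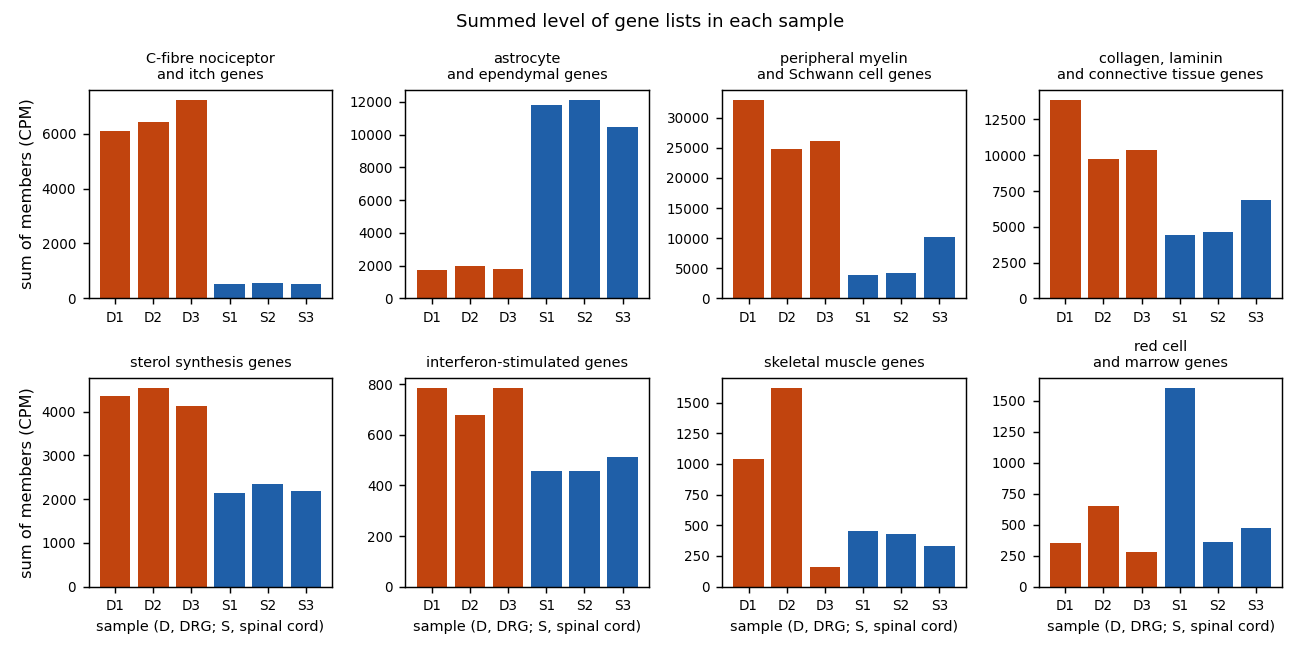
Summed CPM of the members of 8 gene lists (vertical axis, from 0) in each of the 6 samples (horizontal axis, D for DRG and S for spinal cord, 1 bar per sample). Nociceptor, astrocyte and sterol sums separate the tissues, the Schwann cell and connective tissue sums are raised in spinal cord sample 3, and the muscle and red cell sums are led by DRG sample 2 and spinal cord sample 1.

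Genes of C-fibre nociceptors, the unmyelinated neurons for pain and itch, were the list with the highest median difference of the 40 examined, at 6.24 over 34 tested members. All were called, 33 of them higher in DRG. Mrgprd, a receptor of nonpeptidergic C-fibres, was at 174, 105 and 207 CPM in DRG and 0.10, 0 and 0.287 CPM across cord samples. Every DRG sample lay far above every cord sample, and cord sample 3 held 5 of the 7 cord reads. The log2 difference was 10.33 ± 0.47 (adjusted p = 5.86e-08), and 11.54 without spinal cord sample 3. Mrgpra3, an itch receptor, had 655 reads over the DRG samples and none over the cord samples, which makes it at least 203-fold higher in DRG. Mrgpr receptors are near-identical relatives, and the counting could have split reads between them, so their levels are uncertain.

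The one nociceptor-list gene lower in DRG was Sst, which encodes somatostatin, a peptide of an itch neuron class in DRG and of dorsal horn interneurons in the cord. It stood at 3.89, 5.16 and 4.31 CPM in DRG and 88.3, 111 and 77.2 CPM across cord samples, a log2 difference of −4.37 ± 0.20 (adjusted p = 8.08e-09), and its groups did not overlap. Nppb, a peptide that marks the same class of itch neurons, went the other way, with 403 reads in DRG and 1 in cord, a ratio of 375 (95% counting interval 66.9 to 14840). Calca, which encodes the peptide CGRP, was at 878 ± 83.8 CPM in DRG against 12.7 ± 3.09 CPM in cord. The cord level of Calca lay well above the limit of detection in all samples, at 10.1, 11.9 and 16.1 CPM.

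Genes of touch receptors and proprioceptors, mainly large myelinated sensory neurons, were more divided. Of 30 tested members 16 were higher and 7 lower in DRG (median 0.86). Fam38b, the older symbol of the mechanically gated channel Piezo2, was at 380.1, 333 and 458 CPM in DRG and 4.5, 5.41 and 9.41 CPM across cord samples, a log2 difference of 5.93 ± 0.25. Runx3, a transcription factor of proprioceptors, and Fam19a4, a secreted protein of low-threshold C-fibres, were higher by 5.71 ± 0.25 and 5.0 ± 0.25 log2 units. The lower members included Kcnc1, a fast potassium channel, at 107 ± 10.3 CPM in DRG against 388 ± 28.4 CPM in cord (log2 difference −1.86 ± 0.16, adjusted p = 2.14e-06), and the neurotrophin-3 receptor Ntrk3 (log2 difference −1.62 ± 0.13). Pvalb, a calcium buffer of proprioceptors and of cord interneurons, was at 103 ± 33.6 CPM in DRG against 95.4 ± 23.2 CPM in cord and was not called (adjusted p = 0.761). Kcna1, the member with the most reads that was not called, had adjusted p = 0.0588. It was called higher without DRG sample 2 (adjusted p = 0.0479), by DESeq2 (adjusted p = 0.0191) and by limma-voom (adjusted p = 0.0268).

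Transcription factors that specify sensory neurons were higher in DRG in 21 of 27 tested cases and lower in 3 (median 3.01). Prdm12, a chromatin regulator required for nociceptor formation, was at 186, 258 and 232 CPM in DRG and 0.15, 0.14 and 0.631 CPM across cord samples, a log2 difference of 9.57 ± 0.32. Tlx2 had 2386 reads in DRG and 3 in cord, a ratio of 739.5 (95% counting interval 253 to 3589). Pou4f1, the sensory POU factor also known as Brn3a, was at 168 ± 26.98 CPM in DRG against 11.6 ± 0.561 CPM in cord. Isl1, a homeodomain factor of sensory and motor neurons, was at 91.8 ± 10.6 CPM in DRG against 1.89 ± 0.298 CPM in cord. The 3 lower members were Cux2 (log2 difference −1.2 ± 0.14), Eya2 (log2 difference −0.56 ± 0.14) and Neurod1 (log2 difference −2.48 ± 0.28).

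The cord's own transcription factors gave the mirror image. Of 45 tested members of the spinal neuron list 38 were lower and 2 higher in DRG, with a median of −4.22. Sall3 was at 0, 0.0483 and 0.149 CPM in DRG and 28.2, 26.2 and 32.8 CPM across cord samples, a log2 difference of −8.7 ± 0.37. Rorb, a nuclear receptor of dorsal horn inhibitory neurons, was at 0.0894, 0.0965 and 0.099 CPM in DRG and 38.8, 39.7 and 37.6 CPM across cord samples (log2 difference −8.58 ± 0.23). Irx2 had 1 read in DRG against 614 in cord, a ratio of 660.3 (95% counting interval 118 to 26120). Pax2, which marks inhibitory interneurons, was at 1.09 ± 0.114 CPM in DRG against 41.2 ± 10.02 CPM in cord. Lmx1b, of excitatory dorsal neurons, was at 0.257 ± 0.173 CPM in DRG against 5.86 ± 0.423 CPM in cord. The motor neuron factor Mnx1 had 1 read in DRG against 94 in cord. The 2 exceptions were Prdm8 (log2 difference 1.54 ± 0.17) and the chromatin organiser Satb1 (log2 difference 0.55 ± 0.12). Foxp1, the member with the most reads that was not called, was at 28.05 ± 4.35 CPM in DRG against 28.996 ± 2.24 CPM in cord (adjusted p = 0.796).

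Hox genes record the position of a cell along the body axis, and low paralogue numbers belong to the front and high numbers to the tail end. Of 37 tested Hox genes 30 were lower and 1 higher in DRG, with a median of −1.27. The size of the difference varied with the paralogue number, which was not tested as such. Groups 1 to 4 had a median of −1.045 over 11 tested genes, groups 5 to 8 −1.19 over 11, group 9 −0.36 over 4, groups 10 and 11 −2.86 over 6, and groups 12 and 13 −8.89 over 5. All 5 tested genes of groups 12 and 13 were almost absent from DRG. Hoxc12 had no read in DRG and 742 in cord, at 14.3, 12.1 and 11.3 CPM in samples 1 to 3, and was at least 266-fold lower in DRG. Hoxc13 had 1 read in DRG and 1067 in cord, and Hoxb13 2 and 1054. Hoxa13 and Hoxd13 had no read in DRG and 122 and 81 in cord. The DRG were those of L3 to L5, whereas the cord piece is described only as lumbar. The part that a difference in body level has in the Hox values was not tested and cannot be told apart from tissue.

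Genes of groups 10 and 11, which serve lumbar and sacral levels, were detected in both tissues and lower in DRG. Hoxc10 was at 15.2 ± 2.47 CPM in DRG against 97.3 ± 12.9 CPM in cord. Hoxd10 was at 8.43 ± 2.48 CPM in DRG against 69.3 ± 7.91 CPM in cord. Their log2 differences were −2.68 ± 0.16 and −3.04 ± 0.20. Hoxa11 stood at 0.642 ± 0.182 CPM in DRG against 10.9 ± 1.09 CPM in cord. Hoxa10 differed least of the 6, at 32.1 ± 3.86 CPM in DRG against 46.9 ± 6.35 CPM in cord, and its call was lost without DRG sample 1 (adjusted p = 0.0786) or spinal cord sample 2 (adjusted p = 0.0695). Hoxb8 differed most among the genes of groups 1 to 10 that were lower in DRG, at 16.2, 20.03 and 15.9 CPM in DRG and 255, 259 and 197 CPM across cord samples, a log2 difference of −3.77 ± 0.23 (adjusted p = 2.16e-07). In group 9, Hoxa9 was at 25.7 ± 1.74 CPM in DRG against 27.99 ± 2.66 CPM in cord (adjusted p = 0.472). Hoxc9 was at 5.34 ± 0.455 CPM in DRG against 4.98 ± 0.417 CPM in cord (adjusted p = 0.607). Neither of them was called, and Hoxb9 was lower, with a log2 difference of −2.14 ± 0.15. The exception was Hoxd1, at 15.1, 22.1 and 20.4 CPM in DRG and 1.0, 1.12 and 1.43 CPM across cord samples, a log2 difference of 4.02 ± 0.26 (adjusted p = 1.68e-07). Hoxd1 has a known role in nociceptor wiring, and its DRG samples lay above all cord samples.

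**Figure D3:**
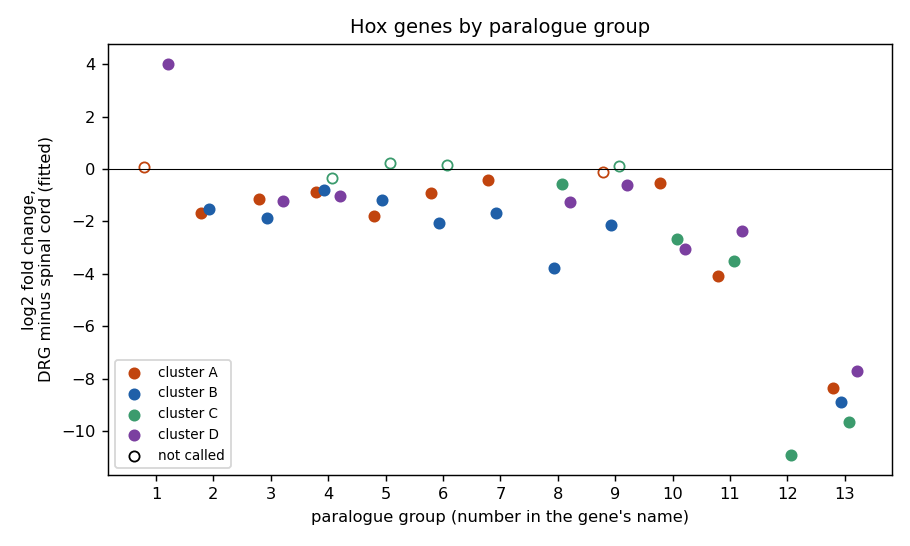
Log2 fold change of each tested Hox gene, DRG minus spinal cord (vertical axis), against its paralogue group (horizontal axis), coloured by cluster, with open circles for genes not called. Groups 12 and 13 lie at or below −7.71 and Hoxd1 alone lies above 0 among the called genes.

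Voltage-gated sodium channels start and carry the action potential, and their subunits divided evenly, with 9 of 19 tested genes higher and 10 lower in DRG. The pore subunits of nociceptors had few reads in the cord. Scn10a was at 1044, 788 and 1302 CPM in DRG and 0.55, 0.793 and 2.52 CPM across cord samples. Scn11a was at 501, 482 and 658 CPM in DRG and 0.20, 0.793 and 1.49 CPM across cord samples. Cord sample 3 was the highest of the cord samples for both. Their log2 differences were 9.71 ± 0.49 and 9.4 ± 0.40, and 10.59 and 10.07 without that sample. Scn9a, the channel whose loss abolishes pain, was higher by 5.74 ± 0.21 log2 units. Central pore subunits went the other way, with Scn2a1 at 11.5 ± 0.713 CPM in DRG against 63.1 ± 1.79 CPM in cord (log2 difference −2.46 ± 0.17). The relatives Scn1a and Scn3a were lower, with log2 differences of −1.47 ± 0.13 and −2.21 ± 0.19. The intracellular channel partners Fgf13 and Fgf14 were split. Fgf13 was higher, at 569.6 ± 80.1 CPM in DRG against 81.5 ± 8.85 CPM in cord. Fgf14 was lower, at 0.754 ± 0.121 CPM in DRG against 23.5 ± 1.52 CPM in cord. Scn4a, a muscle channel, was higher by 5.97 ± 0.27 log2 units, and its samples stood at 12.2, 13.6 and 13.8 CPM in DRG beside the uneven muscle transcripts described at the end.

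Potassium channels repolarise the membrane and set excitability. Of 67 tested genes 31 were higher and 23 lower, with a median of 0.28. Kcnk18, a leak channel of sensory neurons, had 752 reads in DRG and 1 in cord, a ratio of 699 (95% counting interval 125 to 27650). Kcns1, a silent subunit that modifies other channels, was at 68.4 ± 10.9 CPM in DRG against 7.06 ± 1.61 CPM in cord. Kcnd1 was at 170.2 ± 16.02 CPM in DRG against 15.7 ± 1.36 CPM in cord. On the cord side the beta subunit Kcnab3 was at 2.41, 2.65 and 2.33 CPM in DRG and 213, 229 and 179 CPM across cord samples, a log2 difference of −6.39 ± 0.17 (adjusted p = 3.18e-10). Kcnd2, of neuronal dendrites, was lower, with a log2 difference of −5.11 ± 0.16. Kcnd1 and Kcnd2, close relatives that both carry fast transient current, thus differed in opposite directions. Kcnj10, the inward rectifier of astrocytes and satellite glia, was at 112 ± 2.68 CPM in DRG against 1162 ± 160.5 CPM in cord. The fast channels Kcnc1, Kcnc2 and Kcnc4 were lower in DRG, with log2 differences of −1.86 ± 0.16, −1.6 ± 0.12 and −0.85 ± 0.13.

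Channels that convert heat, cold, acid, ATP or touch into current, with the pacemaker channels, were higher in DRG in 24 of 38 tested cases and lower in 7. Trpv1, the capsaicin and heat channel, was at 128, 139 and 129 CPM in DRG and 0.30, 0.14 and 0.574 CPM across cord samples. The cold channel Trpm8 was uneven among the DRG samples, at 31.1, 8.78 and 43.02 CPM in DRG and 0.050, 0 and 0.0574 CPM across cord samples. DRG sample 2 was the lowest of the DRG samples, and all 3 still lay above the cord. With 2 reads in cord the gene had a ratio of 812 (95% counting interval 224 to 6712). Accn3, the older symbol of the acid-sensing channel Asic3, was higher by 7.47 ± 0.23 log2 units, whereas Accn2 (Asic1) and Accn4 (Asic4) were lower, with log2 differences of −0.56 ± 0.14 and −6.82 ± 0.41. Hcn2, a pacemaker channel of both tissues, was lower, at 111 ± 17.5 CPM in DRG against 381 ± 81.9 CPM in cord (log2 difference −1.78 ± 0.17, adjusted p = 3.82e-06). P2rx3, the ATP receptor of nociceptors, was at 399 ± 22.9 CPM in DRG against 3.97 ± 0.455 CPM in cord.

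Calcium channel genes were lower in DRG more often than higher, with 14 of 23 lower and 6 higher (median −1.2). Cacna1g, a low-voltage pore subunit, was at 3.53, 3.04 and 3.02 CPM in DRG and 94.7, 94.2 and 121 CPM across cord samples, a log2 difference of −5.01 ± 0.14. Its relative Cacna1h, the low-voltage channel of touch neurons, was higher by 0.83 ± 0.10 log2 units. Cacnb3 was the beta subunit higher in DRG, at 352 ± 46.7 CPM in DRG against 52.2 ± 5.06 CPM in cord, and Cacnb2 was lower (log2 difference −2.85 ± 0.14). Cacna2d1, a target of gabapentin, was at 163 ± 7.36 CPM in DRG against 57.7 ± 0.48 CPM in cord (log2 difference 1.5 ± 0.15), while Cacna2d2 was lower (log2 difference −1.28 ± 0.11). Cacna1b, the presynaptic channel blocked by ziconotide, was higher by 1.84 ± 0.28 log2 units. Cacng3, an AMPA receptor partner, was lower, with a log2 difference of −4.05 ± 0.23, and Cacna1a was at 141 ± 8.03 CPM in DRG against 131 ± 16.5 CPM in cord and not called (adjusted p = 0.431). It was called higher, at 0.27 on the log2 scale, with DRG sample 2 and spinal cord sample 3 left out (adjusted p = 0.046).

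Both tissues use glutamate as a transmitter. Of 40 tested glutamate genes 8 were higher and 26 lower in DRG (median −1.45). The vesicular transporter Slc17a7 was at 235, 316 and 251 CPM in DRG and 0.20, 0.373 and 0.861 CPM across cord samples, a log2 difference of 9.16 ± 0.32. Slc17a6, the other main vesicular transporter, was at 199, 203 and 243 CPM in DRG and 219.8, 217 and 216 CPM across cord samples; its groups overlapped and it was not called (adjusted p = 0.937). Glutamate uptake by astrocytes was on the cord side. Slc1a2 was at 7.79 ± 0.437 CPM in DRG against 1732 ± 103 CPM in cord (log2 difference −7.8 ± 0.23). Slc1a3 was at 18.7 ± 1.76 CPM in DRG against 217 ± 45.2 CPM in cord. The metabotropic receptor Grm5 was lower, with a log2 difference of −6.94 ± 0.23. Of the AMPA receptor subunits Gria1, Gria2, Gria3 and Gria4, all were lower, with Gria2, which limits calcium entry, at 17.3 ± 0.571 CPM in DRG against 122 ± 1.27 CPM in cord. The kainate subunit Grik1 went the other way, at 308 ± 35.9 CPM in DRG against 19.4 ± 0.408 CPM in cord (log2 difference 3.99 ± 0.12).

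Genes of inhibitory transmission lay mostly on the cord side. Of 30 tested GABA and glycine genes 22 were lower and 1 higher (median −2.82). Slc32a1, the vesicular transporter of both transmitters, was at 0.134, 0.338 and 0.198 CPM in DRG and 272, 292 and 216 CPM across cord samples. Gad2, which makes GABA, was at 0.0894, 0.386 and 0.297 CPM in DRG and 123, 128 and 119.7 CPM across cord samples. No DRG sample came near any cord sample for either gene. Slc12a5, the chloride exporter that makes GABA inhibitory in mature neurons, was at 2.61 ± 0.312 CPM in DRG against 967 ± 74.2 CPM in cord (log2 difference −8.53 ± 0.18, adjusted p = 1.18e-10). Slc12a2, the chloride importer, was at 173 ± 6.29 CPM in DRG against 162 ± 6.01 CPM in cord and not called (adjusted p = 0.414). The GABA-B subunit Gabbr1 was at 585 ± 31.4 CPM in DRG against 598 ± 16.7 CPM in cord (adjusted p = 0.785).

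Gabbr2, the partner of Gabbr1, was the only member of that list called higher, by 1.06 ± 0.37 log2 units. This call was lost without DRG sample 1 (adjusted p = 0.0833), DRG sample 3 (adjusted p = 0.0878), spinal cord sample 1 (adjusted p = 0.104) or spinal cord sample 2 (adjusted p = 0.0852). It was also lost in a fit of the 6 samples alone (adjusted p = 0.0838) and without a filter (adjusted p = 0.0517). The Gabbr2 samples were at 150.3, 110.3 and 168 CPM in DRG and 49.4, 41.4 and 115 CPM across cord samples, with spinal cord sample 3 the highest of the cord. The glycine transporter Slc6a5 had no read in DRG but was not called (adjusted p = 0.0825). Its cord samples stood at 1.65, 1.21 and 16.9 CPM, so that sample 3 held most of the 354 reads. It was called without that sample (adjusted p = 0.000294), by DESeq2 (adjusted p = 0.00389) and by limma-voom (adjusted p = 0.00343).

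Cholinergic genes were found on both sides. Those that make and load acetylcholine, the transmitter of motor neurons, were lower in DRG. Chat was at 0.0894, 0.0483 and 0.149 CPM in DRG and 26.6, 29.7 and 26.5 CPM across cord samples. The vesicular transporter Slc18a3 was at 0.223, 0.145 and 0 CPM in DRG and 51.3, 63.2 and 38.3 CPM across cord samples. The nicotinic receptor subunit Chrna6 was at 53.7, 68.5 and 57.6 CPM in DRG and 1.7, 1.26 and 1.43 CPM across cord samples. Its relatives Chrna7 and Chrnb3 were also higher in DRG, by 5.01 ± 0.53 and 4.09 ± 0.26 log2 units, while Chrna2 and Chrna4 were lower (log2 difference −7.16 ± 0.60 and −3.61 ± 0.16). Over the whole list of 23 tested genes 9 were higher and 10 lower. Agrn, which clusters receptors at the muscle synapse, was at 275 ± 70.2 CPM in DRG against 259 ± 99.7 CPM in cord and not called (adjusted p = 0.801). With DRG sample 2 and spinal cord sample 3 left out Agrn was called higher, at 0.63 on the log2 scale (adjusted p = 0.000672).

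The release machinery that all these transmitters share was divided by isoform. Of 45 tested synaptic vesicle genes 19 were higher and 17 lower in DRG (median 0.25). Among the Sv2 proteins, which bind botulinum toxin, Sv2a was at 78.5 ± 6.95 CPM in DRG against 639 ± 24.01 CPM in cord (log2 difference −3.03 ± 0.13). Sv2b was at 281 ± 22.6 CPM in DRG against 120.2 ± 6.67 CPM in cord (log2 difference 1.22 ± 0.25). Sv2c was higher by 4.72 ± 1.10 log2 units with samples at 58.7, 5.5 and 138 CPM in DRG and 1.65, 2.15 and 4.02 CPM across cord samples, and limma-voom did not call it (adjusted p = 0.0629). Syt9 was higher, at 155 ± 13.9 CPM in DRG against 18.6 ± 0.682 CPM in cord. Syt13 was lower, at 2.77 ± 0.692 CPM in DRG against 129 ± 16.3 CPM in cord. Their log2 differences were 3.06 ± 0.11 and −5.54 ± 0.19. Vamp1 was lower, with a log2 difference of −1.41 ± 0.14, while Vamp2 was at 714 ± 93.97 CPM in DRG against 594 ± 71.4 CPM in cord and not called (adjusted p = 0.101, and adjusted p = 0.0475 without DRG sample 1). Cplx1, the member with the most reads that was not called, had adjusted p = 0.124, but it was called lower in a fit of the 6 samples alone (adjusted p = 0.0139) and by limma-voom (adjusted p = 0.0161).

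Neuropeptides are released by sensory and cord neurons and act on receptors that couple to G proteins. Of 38 tested peptide and peptide-processing genes 13 were higher and 21 lower in DRG, and of 58 tested receptor genes 16 were higher and 35 lower. Tac1, which encodes substance P, was at 153, 202 and 183 CPM in DRG and 25.95, 30.7 and 22.9 CPM across cord samples. Its receptor gene Tacr1 was at 0.357, 0.434 and 0.545 CPM in DRG and 19.7, 18.5 and 27.2 CPM across cord samples. The peptide gene was higher in DRG by 2.75 ± 0.17 log2 units and the receptor gene lower (log2 difference −5.6 ± 0.23), with no overlap of groups for either. Calca was higher by 6.11 ± 0.20 log2 units and Ramp1, which pairs with the CGRP receptor, lower at 2.32 ± 0.585 CPM in DRG against 84.98 ± 15.01 CPM in cord (log2 difference −5.19 ± 0.22). Calcrl, the receptor itself, was lower, with a log2 difference of −1.03 ± 0.20. Adcyap1, the peptide PACAP, was higher by 1.42 ± 0.12 log2 units and its receptor Adcyap1r1 lower at 10.6 ± 1.28 CPM in DRG against 294 ± 42.1 CPM in cord (log2 difference −4.79 ± 0.14).

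Several other peptide genes were lower in DRG. Tac2, which encodes neurokinin B, was at 0, 0.0965 and 0.099 CPM in DRG and 26.5, 34.5 and 23.2 CPM across cord samples. Its receptor Tacr3 was at 0.54 ± 0.166 CPM in DRG against 19.3 ± 0.571 CPM in cord. Sst and the receptor Sstr3 were both lower in DRG, Sstr3 with 1 read against 583, a ratio of 627 (95% counting interval 112 to 24810). The opioid precursors Penk, Pdyn and Pnoc were lower, with log2 differences of −3.86 ± 0.13, −5.54 ± 0.46 and −5.37 ± 0.39. Cholecystokinin, Cck, was at 0.222 ± 0.0592 CPM in DRG against 20.3 ± 3.53 CPM in cord. Its receptors parted. Cckar was higher, at 30.003 ± 3.68 CPM in DRG against 1.96 ± 0.393 CPM in cord (log2 difference 3.93 ± 0.20). Cckbr was lower, at 1.37 ± 1.48 CPM in DRG against 16.95 ± 4.06 CPM in cord (log2 difference −3.6 ± 0.56). DRG sample 1 was the highest of its group for Cckbr, at 3.08, 0.531 and 0.495 CPM, and without it the log2 difference was −5.03.

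Among the monoamine receptors, Htr3b and Htr3a, subunits of the serotonin-gated channel, were higher by 6.87 ± 0.33 and 4.38 ± 0.17 log2 units. Htr2c, of the serotonin receptors that couple to G proteins, was at 0.357, 0.29 and 0.297 CPM in DRG and 97.4, 108 and 96.4 CPM across cord samples, a log2 difference of −8.29 ± 0.15 (adjusted p = 4.15e-11). The migraine drug target Htr1d was at 42.2 ± 2.98 CPM in DRG against 2.87 ± 0.30 CPM in cord. The opioid receptors were on both sides. Oprk1 was at 2.59 ± 0.239 CPM in DRG against 8.9 ± 0.732 CPM in cord (log2 difference −1.78 ± 0.20). Oprl1 was at 26.5 ± 1.97 CPM in DRG against 106 ± 13.5 CPM in cord (log2 difference −1.99 ± 0.12). Oprm1, near the limit of detection in the cord, was at 0.797 ± 0.19 CPM in DRG against 0.177 ± 0.0996 CPM in cord (log2 difference 2.17 ± 0.49). Oprd1 was at 17.4, 4.49 and 19.7 CPM in DRG and 1.4, 1.26 and 5.97 CPM across cord samples. Its call was lost without DRG sample 1, DRG sample 3, spinal cord sample 1 or spinal cord sample 2 (adjusted p = 0.0559, 0.0515, 0.0749 and 0.0632).

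**Figure D4:**
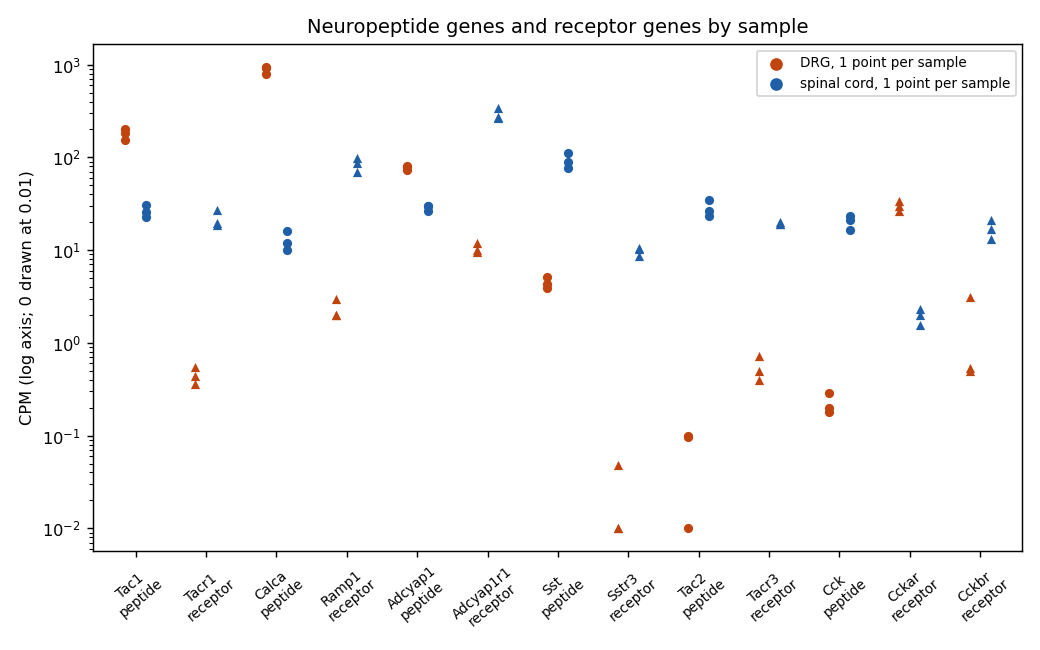
Level of 6 neuropeptide genes (circles) and 7 receptor genes (triangles) in each sample, in CPM on a log axis, with DRG in orange and spinal cord in blue. Tac1, Calca and Adcyap1 are higher in DRG and their receptor genes higher in the cord, while Sst, Tac2 and Cck are higher in the cord.

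Neurotrophic factors act through their receptors to keep sensory neurons alive and to shape their type. Of 39 tested ligand and receptor genes 18 were higher and 11 lower (median 0.45). Ngfr, the shared neurotrophin receptor of sensory neurons and Schwann cells, was at 796 ± 76.6 CPM in DRG against 9.91 ± 3.9 CPM in cord (log2 difference 6.34 ± 0.27). Ret, the signalling partner of all GDNF family receptors, was at 882 ± 63.2 CPM in DRG against 151 ± 6.4 CPM in cord. Gfra2 was at 237 ± 33.7 CPM in DRG against 46.7 ± 0.605 CPM in cord. The neurotrophin receptors Ntrk2 and Ntrk3 were lower, with log2 differences of −1.16 ± 0.11 and −1.62 ± 0.13. The neurotrophin Bdnf was at 28.9 ± 2.38 CPM in DRG against 9.06 ± 0.66 CPM in cord (log2 difference 1.67 ± 0.16). Ptn, a growth factor, was at 92.6 ± 1.97 CPM in DRG against 103 ± 1.65 CPM in cord and not called (adjusted p = 0.136), but it was called lower with upper quartile factors (adjusted p = 0.0456).

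Filament and microtubule genes of long axons were higher in DRG in 28 of 49 tested cases and lower in 11 (median 0.71). Avil, an actin regulator of sensory neurons, was at 937, 1199 and 1074 CPM in DRG and 0.90, 1.03 and 2.41 CPM across cord samples. Prph, the filament of unmyelinated and motor neurons, was at 1372, 1771 and 1594 CPM in DRG and 66.2, 79.7 and 61.4 CPM across cord samples. Their groups were widely apart. The neurofilaments Nefl, Nefm and Nefh were higher by 1.56 ± 0.19, 1.06 ± 0.21 and 1.25 ± 0.20 log2 units, whereas Ina, which joins them in central neurons, was lower, with a log2 difference of −3.2 ± 0.16. Mtap1b, a microtubule protein of growing axons, was at 4418 ± 439 CPM in DRG against 1089.5 ± 70.5 CPM in cord. Mtap2, the dendrite protein, was at 127 ± 7.85 CPM in DRG against 602 ± 29.8 CPM in cord (log2 difference −2.25 ± 0.11). Stmn2 was higher (log2 difference 1.82 ± 0.12) and Stmn4 lower (log2 difference −3.46 ± 0.19). Sensory neurons of the DRG have no dendrites. Mapt, the axonal protein tau, was at 570.4 ± 33.5 CPM in DRG against 599 ± 61.9 CPM in cord and not called (adjusted p = 0.759). Tubulin genes are near-identical in sequence, so their single values are uncertain and are not given.

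Myelin is made by Schwann cells in nerve and ganglion and by oligodendrocytes in the cord, from partly different proteins. Of 28 tested Schwann cell genes 24 were higher and 1 lower in DRG (median 2.19), and of 36 oligodendrocyte genes 31 were lower and 1 higher (median −4.27). Pmp22 and Prx, 2 peripheral myelin genes, were higher by 2.34 ± 0.39 and 2.17 ± 0.44 log2 units, and by 3.06 and 2.96 without spinal cord sample 3. Cdh1, the cadherin of Schwann cell folds, was at 309.6, 249 and 339 CPM in DRG and 10.4, 10.03 and 49.8 CPM across cord samples (log2 difference 3.69 ± 0.65, and 4.88 without that sample). The 1 Schwann-list gene lower in DRG was Sox2, a factor of immature Schwann cells and of central progenitors, at 16.7 ± 0.893 CPM in DRG against 52.1 ± 7.79 CPM in cord. The part that the composition of spinal cord sample 3 has in these values was not tested.

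Several oligodendrocyte genes had very few reads in DRG. Mog, on the surface of central myelin, was at 0.0447, 0.0965 and 0.198 CPM in DRG and 240.3, 259.9 and 195 CPM across cord samples, a log2 difference of −10.95 ± 0.26 (adjusted p = 1.61e-10). Olig2, the lineage factor, had 3 reads in DRG and 3447 in cord, a ratio of 1236 (95% counting interval 422 to 5995). Mobp and Ermn were lower, with log2 differences of −9.84 ± 0.36 and −10.04 ± 0.16. The 1 member higher in DRG was Ndrg1 (log2 difference 1.24 ± 0.18, and 2 members were called higher without spinal cord sample 3), which Schwann cells also express. Apod, a lipid carrier of both glia, was at 1881 ± 299.5 CPM in DRG against 1310.4 ± 489.7 CPM in cord and not called (adjusted p = 0.0949), but it was called without spinal cord sample 3 (adjusted p = 0.00277). Of 20 tested genes in the list for myelin of both kinds of glia, 3 were higher and 9 lower (median −0.053). The 60% called was near the 59.6% of all tested genes, and the list also counts Cldn11 of central myelin. Mag was lower, with a log2 difference of −2.5 ± 0.16. Cldn11, the tight-junction protein of central myelin, was at 15.9 ± 2.07 CPM in DRG against 382 ± 50.2 CPM in cord (log2 difference −4.58 ± 0.14). Mal was at 802 ± 142 CPM in DRG against 796 ± 96.4 CPM in cord and not called (adjusted p = 0.957). Of the 3 higher, Erbb3, the neuregulin receptor, was at 151, 56.6 and 122 CPM in DRG and 12.4, 11.1 and 61.7 CPM across cord samples. Its call was lost without DRG sample 1, DRG sample 3, spinal cord sample 1 or spinal cord sample 2 (adjusted p = 0.123, 0.0833, 0.135 and 0.103). Without any 1 of these samples, 1 of the 20 was called higher in place of 3, and with DRG sample 2 and spinal cord sample 3 left out 7 were.

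Astrocyte and ependymal genes were lower in DRG in 33 of 36 tested cases and higher in 2 (median −4.02). Gfap, the astrocyte filament, was at 2.9, 2.46 and 3.66 CPM in DRG and 1076, 1033 and 889 CPM across cord samples. The water channel Aqp4 was at 9.54 ± 1.26 CPM in DRG against 406 ± 13.7 CPM in cord. The amino acid transporter Slc7a10 was at 0.377 ± 0.0606 CPM in DRG against 167 ± 32.7 CPM in cord. Their log2 differences were −5.41 ± 0.18 and −8.76 ± 0.25. Ccdc153, a gene of ciliated ependymal cells, had 1 read in DRG and 707 in cord. The 2 members higher in DRG were Serpina3n and S100b. Serpina3n, an acute-phase inhibitor, was at 221 ± 19.1 CPM in DRG against 68.5 ± 9.55 CPM in cord (log2 difference 1.69 ± 0.13). S100b, a calcium-binding protein of Schwann cells as well, was at 836 ± 20.7 CPM in DRG against 671 ± 87.9 CPM in cord (log2 difference 0.32 ± 0.11). The S100b call ended without DRG sample 3 (adjusted p = 0.0569), spinal cord sample 1 (adjusted p = 0.114) or spinal cord sample 3 (adjusted p = 0.0594).

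Satellite glia, which ensheath the sensory cell bodies, share most of their known genes with astrocytes. Of 21 tested genes 6 were higher and 13 lower in DRG (median −1.59). Fabp7, a fatty acid carrier of this cell type, was at 197 ± 27.5 CPM in DRG against 26.96 ± 2.44 CPM in cord (log2 difference 2.87 ± 0.15). Scn7a, a sodium channel of peripheral glia, was at 407 ± 17.8 CPM in DRG against 33.4 ± 18.1 CPM in cord (log2 difference 3.61 ± 0.33). Among the genes they share with astrocytes, the connexin Gja1, the glutamine-making enzyme Glul and the pump subunit Atp1b2 were lower, with log2 differences of −3.97 ± 0.14, −2.0 ± 0.13 and −4.04 ± 0.23. Apoe was at 1752 ± 138 CPM in DRG against 1454 ± 147 CPM in cord and not called (adjusted p = 0.0752). It was called higher by limma-voom (adjusted p = 0.0311) and also when DESeq2 was used (adjusted p = 0.02).

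The resident immune cells of the tissues also parted. Of 22 tested microglia genes 19 were lower and 1 higher in DRG (median −1.84). Sall1, the transcription factor that sets microglia apart from other macrophages but is also made by other central cells, was at 0.759, 0.338 and 0.396 CPM in DRG and 61.96, 50.9 and 75.2 CPM across cord samples (log2 difference −6.94 ± 0.27, adjusted p = 3.48e-09). Tmem119 and Cx3cr1, a microglial membrane protein and the fractalkine receptor, were lower, with log2 differences of −2.85 ± 0.16 and −2.51 ± 0.17. Olfml3 was the exception (log2 difference 0.66 ± 0.14). Of 27 tested genes of nerve and border macrophages 15 were higher and 1 lower (median 1.08). Cd74, the invariant chain of antigen presentation, was at 149.8, 140.1 and 124 CPM in DRG and 39.1, 30.6 and 72.5 CPM across cord samples. The mannose receptor Mrc1 was at 12.4 ± 3.19 CPM in DRG against 5.47 ± 1.73 CPM in cord (log2 difference 1.19 ± 0.23). Ccl2 was at 2.71 ± 1.18 CPM in DRG against 0.472 ± 0.252 CPM in cord (log2 difference 2.54 ± 0.41). The lower gene was Fcgr1 (log2 difference −0.99 ± 0.35), which lost its call without DRG sample 2, DRG sample 3 or spinal cord sample 3 (adjusted p = 0.113, 0.0973 and 0.154). Gas6 was at 249.5 ± 21.2 CPM in DRG against 250.3 ± 29.1 CPM in cord and not called (adjusted p = 0.979). Without DRG sample 1 the number lower in that list was 2.

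Complement genes were found on both sides, with 10 of 25 tested genes higher and 8 lower. The subunits that start the classical cascade, C1qa, C1qb and C1qc, were lower, with log2 differences of −0.94 ± 0.11, −1.09 ± 0.16 and −1.01 ± 0.12. The proteases that follow them were higher. C1s was at 33.9 ± 10.2 CPM in DRG against 6.77 ± 2.69 CPM in cord (log2 difference 2.34 ± 0.28). C2 was at 16.2 ± 5.07 CPM in DRG against 3.22 ± 1.94 CPM in cord (log2 difference 2.36 ± 0.36). C4b (log2 difference 1.08 ± 0.26) and C3 (log2 difference 1.11 ± 0.27) were higher too. Of the surface inhibitors, Cd55 was at 303, 389 and 358 CPM in DRG and 12.6, 13.1 and 18.8 CPM across cord samples, and Cd59a was higher by 2.12 ± 0.18 log2 units. Among mast cell genes the tryptase Tpsb2 had 209 reads in DRG and 1 in cord, and Kit, the receptor on mast cells and some neurons, was at 96.1 ± 14.96 CPM in DRG against 34.7 ± 0.713 CPM in cord (log2 difference 1.47 ± 0.12). Gata2 was lower, with a log2 difference of −1.68 ± 0.19, and which cells carried it was not tested. Over the mast, T and B cell list 7 of 13 tested genes were higher and 2 lower. Without spinal cord sample 2 the number lower was 5, and it was 1 without DRG sample 1 or without spinal cord sample 1. T cell genes such as Cd3e, with 4 reads in DRG and 7 in cord, were too low to test.

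Interferon-stimulated genes, which cells switch on through STAT and IRF factors when they sense interferon, were higher in DRG in 30 of 42 tested cases and lower in 2 (median 0.97). The response is known to act through a DNA element in the promoters of these genes, so the 250 bases before their RefSeq start sites (build GRCm38.p6) were searched on both strands for the core letters GAAANNGAA. Of the 42 tested members 28 had a window. That is under 80% of the list, so a check of the whole list is void, and the shares describe the matched members only. Of these 16 held the letters (57.1%), against 921 of 12529 tested genes with a window (7.35%) and 7.13% of all 32851 start sites. Among the 23 matched members called higher in DRG 13 held them. So did Trim30a and Oas3, which were not called, and Irgm1, which was lower (log2 difference −0.74 ± 0.17). The match is one of letters and shows no binding.

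Stretches from the windows of 5 members that held the letters are shown 5′ to 3′ in the direction of the gene, with matches to GAAANNGAA or its reverse complement in capitals. Ifit1 and Bst2 encode antiviral proteins, Isg15 a ubiquitin-like protein and Cxcl10 a chemokine, all higher in DRG, and Irgm1 encodes a GTPase that was lower.
Ifit1, chr19:34640760-34640833 (+): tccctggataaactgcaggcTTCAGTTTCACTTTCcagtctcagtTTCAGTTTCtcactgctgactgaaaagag
Bst2, chr8:71537568-71537622 (−): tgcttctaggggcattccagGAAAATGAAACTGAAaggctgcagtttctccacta
Isg15, chr4:156200856-156200916 (−): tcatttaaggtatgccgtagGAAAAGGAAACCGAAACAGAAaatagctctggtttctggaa
Cxcl10, chr5:92349074-92349122 (−): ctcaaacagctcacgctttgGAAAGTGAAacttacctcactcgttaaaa
Irgm1, chr11:48871421-48871470 (−): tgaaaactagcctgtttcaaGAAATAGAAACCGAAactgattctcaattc

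Ifit1 was at 19.9, 13.9 and 21.7 CPM in DRG and 5.35, 4.76 and 6.66 CPM across cord samples, a log2 difference of 1.73 ± 0.21 (adjusted p = 2.4e-05). Bst2 was at 15.6, 11.9 and 13.1 CPM in DRG and 5.55, 5.04 and 7.23 CPM across cord samples. Cxcl10 was at 2.81, 2.27 and 2.57 CPM in DRG and 0.30, 0.233 and 0.918 CPM across cord samples. Their log2 differences were 1.19 ± 0.18 and 2.44 ± 0.42. Spinal cord sample 3 was the highest of the cord samples for both, and without it the difference of Cxcl10 was 3.24. Isg15 was higher by 0.83 ± 0.26 log2 units, a call that ended without DRG sample 1 (adjusted p = 0.0974) or spinal cord sample 2 (adjusted p = 0.0787). Oasl2, an antiviral protein of the OAS family, was at 51.6, 43.2 and 50.1 CPM in DRG and 9.2, 9.33 and 14.5 CPM across cord samples. The viral RNA sensor Ddx58 was at 33.7, 25.3 and 34.3 CPM in DRG and 9.8, 7.74 and 10.4 CPM across cord samples. Both had all DRG samples above all cord samples. The largest difference the other way was that of Ly6e, at 62.1 ± 6.59 CPM in DRG against 153 ± 21.1 CPM in cord (log2 difference −1.3 ± 0.12). Across the list 32 of 42 members were highest in sample 3 among the cord samples, and without that sample 32 were called higher. With DRG samples 1 and 2 left out 23 were called higher and 1 lower.

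Sterol synthesis genes were higher in DRG in 24 of 27 tested cases and lower in 1 (median 1.11). Cholesterol is made in cells by a chain of enzymes under the factor SREBP2, and myelinating glia are known for high rates of it. Sqle, which makes the first oxygenated sterol precursor, was at 293, 336 and 302 CPM in DRG and 115, 138 and 118 CPM across cord samples. All DRG samples lay above all cord samples, and the log2 difference was 1.33 ± 0.11. Stard4, a sterol carrier, was higher by 2.2 ± 0.32 log2 units. Tm7sf2 was higher by 1.68 ± 0.10 log2 units and Cyp51 was higher by 0.37 ± 0.09 log2 units. Srebf2, which encodes the factor, was higher by 0.49 ± 0.11 log2 units, and the transporter Abcg1, which exports cholesterol, was at 100.4 ± 3.34 CPM in DRG against 105 ± 6.12 CPM in cord and not called (adjusted p = 0.647). Srebf1, its relative that drives fatty acid synthesis, was lower, with a log2 difference of −0.34 ± 0.12, and this call was lost without DRG sample 3, spinal cord sample 1 or spinal cord sample 2 (adjusted p = 0.148, 0.103 and 0.0946). The Schwann cell list moved in the same direction, and its part in the sterol difference was not tested. Spinal cord sample 3, highest in Schwann cell genes, had a sterol sum of 2184 CPM, between the 2143 and 2350 CPM of the other cord samples, and DRG sample 1, highest in Schwann cell genes among the DRG samples, had 4350 CPM between 4141 and 4546.

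The same windows were searched in the sterol list, of which 18 of 27 tested members matched, again under 80%, so that a check of the whole list is void. The letters CCAAT, on either strand, are the core of the box bound by NF-Y, a factor known to work with SREBP. They lay in 16 of the 18 matched windows (88.9%), against 39.7% of tested genes with a window. The letters TCACNCCAC, the classic sterol regulatory element, were in none of the 18, against 1.26% of tested genes, which says only that these letters are not in these windows. Stretches from the windows of 3 genes are shown in the direction of the gene, with CCAAT or its reverse complement in capitals. All 3 encode enzymes of late cholesterol synthesis or of isoprene supply.
Lss, chr10:76531523-76531567 (+): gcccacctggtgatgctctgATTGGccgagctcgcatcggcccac
Idi1, chr13:8885541-8885605 (+): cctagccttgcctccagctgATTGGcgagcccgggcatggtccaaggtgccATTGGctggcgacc
Dhcr7, chr7:143830109-143830189 (+): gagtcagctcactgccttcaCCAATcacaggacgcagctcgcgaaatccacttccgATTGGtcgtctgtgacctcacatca
Lss, which closes the sterol rings, was at 52.5, 28.3 and 49.1 CPM in DRG and 13.8, 16.04 and 20.7 CPM across cord samples (log2 difference 1.36 ± 0.22). Idi1 was at 4.69, 6.66 and 4.7 CPM in DRG and 2.15, 2.71 and 3.04 CPM across cord samples (log2 difference 1.02 ± 0.20). Dhcr7, the final enzyme of one branch, was at 117, 151 and 120.3 CPM in DRG and 70.9, 81.4 and 52.2 CPM across cord samples (log2 difference 0.93 ± 0.17). All 3 were higher in every DRG sample than in every cord sample.

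Chemokine, interleukin and receptor genes gave no common direction, with 18 of 47 tested genes higher and 14 lower. Il31ra, the receptor of an itch cytokine on sensory neurons, was at 24.6, 14.8 and 28.8 CPM in DRG and 0.10, 0.0466 and 0.516 CPM across cord samples. Its partner Osmr was at 58.3 ± 5.61 CPM in DRG against 9.86 ± 0.844 CPM in cord (log2 difference 2.56 ± 0.11). Cx3cl1, the membrane chemokine of neurons that binds the microglial receptor Cx3cr1, was at 11.97, 12.3 and 10.9 CPM in DRG and 414, 398 and 356 CPM across cord samples, a log2 difference of −5.05 ± 0.11 (adjusted p = 1.18e-10). The chemokine Cxcl14 and the alarmin Il33, made by oligodendrocytes and astrocytes, were lower, with log2 differences of −6.33 ± 0.25 and −2.97 ± 0.19. Il34 and Csf1, both ligands of the receptor Csf1r, parted. Il34 was at 57.4 ± 4.59 CPM in DRG against 32.2 ± 7.92 CPM in cord (log2 difference 0.84 ± 0.16). Csf1 was at 31.0 ± 3.3 CPM in DRG against 62.995 ± 5.61 CPM in cord (log2 difference −1.02 ± 0.15). Csf1r itself was lower, with a log2 difference of −1.67 ± 0.13. Cxcr7, the member with the most reads that was not called, was at 13.97 ± 2.06 CPM in DRG against 14.9 ± 1.5 CPM in cord (adjusted p = 0.521).

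Genes of the TNF family and of NF-κB were also split, with 18 of 46 tested higher and 13 lower (median 0.16). With DRG samples 1 and 2 left out, which leaves 1 DRG sample whose spread is taken from the other groups, 7 were called lower. Beyond Ngfr, which belongs to this family, Tnfrsf11a, the receptor RANK, was at 24.8, 26.4 and 26.3 CPM in DRG and 5.6, 5.92 and 4.99 CPM across cord samples (log2 difference 2.23 ± 0.11). The ligand Eda was at 16.2 ± 2.08 CPM in DRG against 5.36 ± 1.41 CPM in cord (log2 difference 1.6 ± 0.19). Tnfrsf19, a receptor of central progenitors and of vessels, was lower at 9.47, 6.51 and 9.6 CPM in DRG and 63.7, 56.7 and 71.2 CPM across cord samples (log2 difference −2.9 ± 0.18, adjusted p = 9.76e-08). Ikbkb, the kinase of the canonical pathway, was at 51.3 ± 2.35 CPM in DRG against 49.9 ± 4.0 CPM in cord and not called (adjusted p = 0.729).

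Blood vessels of the cord form a tighter barrier than those of the DRG, whose cell body region is open to blood-borne molecules. Of 30 tested barrier endothelium genes 19 were lower and 5 higher in DRG (median −0.79), and of 34 general endothelial and mural cell genes 20 were lower and 5 higher (median −0.61). Slc38a5, an amino acid transporter, was at 0.849, 0.531 and 0.842 CPM in DRG and 15.4, 16.2 and 13.7 CPM across cord samples. Slco1c1, the thyroid hormone carrier of the barrier, was at 8.94 ± 2.13 CPM in DRG against 80.9 ± 4.96 CPM in cord (log2 difference −3.18 ± 0.18). The glucose transporter Slc2a1 and the tight-junction protein Ocln were lower, with log2 differences of −1.24 ± 0.12 and −1.97 ± 0.22. Cldn5, the main claudin of endothelium, was at 39.2 ± 2.41 CPM in DRG against 56.2 ± 4.98 CPM in cord (log2 difference −0.52 ± 0.12). Cdh5, the cadherin of all endothelium, was at 45.8 ± 5.09 CPM in DRG against 43.7 ± 7.64 CPM in cord and not called (adjusted p = 0.693). Abcg2, an efflux pump also made by other cells, was higher at 95.6, 115 and 108 CPM in DRG and 31.3, 34.4 and 33.8 CPM across cord samples (log2 difference 1.68 ± 0.10). Des, a muscle filament found in pericytes too, was higher by 2.29 ± 0.58 log2 units, at 19.2, 30.7 and 5.84 CPM in the DRG samples that also differed in muscle genes, and was not called without DRG samples 1 and 2 (adjusted p = 0.158). With DRG samples 1 and 2 left out 2 of the 34 general genes were called higher in place of 5.

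The matrix between cells differed in kind. Of 61 tested collagen, laminin and connective tissue genes 44 were higher and 9 lower in DRG (median 1.27). Postn, a matrix protein of nerve sheaths and tendon, was at 32.5, 36.4 and 26.1 CPM in DRG and 1.55, 1.26 and 2.3 CPM across cord samples (log2 difference 4.23 ± 0.22, adjusted p = 3.9e-08). Col28a1, a collagen of peripheral glia, was at 114, 80.01 and 111 CPM in DRG and 2.75, 3.17 and 10.7 CPM across cord samples. Lum was at 129.96, 77.1 and 86.2 CPM in DRG and 8.95, 6.81 and 21.9 CPM across cord samples. Cord sample 3 was highest of the cord samples for Col28a1 and Lum, with log2 differences of 5.11 and 3.65 without it. The common fibrillar collagens Col1a1, Col1a2 and Col3a1 were higher by 2.22 ± 0.40, 1.95 ± 0.38 and 2.18 ± 0.44 log2 units. Col19a1 was lower (log2 difference −1.5 ± 0.17), and Sparc, a matrix protein of many cells, was at 2985 ± 487 CPM in DRG against 2636 ± 204 CPM in cord and not called (adjusted p = 0.339). Of 22 tested genes of the central matrix, the proteoglycan coat around cord neurons and nodes, 14 were lower and 5 higher (median −0.86). Acan, its largest proteoglycan, was at 1.97, 1.64 and 2.33 CPM in DRG and 32.7, 32.6 and 38.4 CPM across cord samples. The node link protein Hapln2 was at 1.52, 1.21 and 1.73 CPM in DRG and 106, 125 and 95.3 CPM across cord samples. Sema3a, a repellent held in this coat, was lower, with a log2 difference of −6.67 ± 0.24, and Chst3, a sulfating enzyme, was higher by 1.27 ± 0.33 log2 units. With DRG samples 1 and 2 left out 2 central matrix genes were called higher.

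Nerve injury genes showed no common direction, with 13 of 30 tested genes higher and 9 lower in DRG. Atf3, the injury factor of sensory neurons, was at 42.6, 13.2 and 18.4 CPM in DRG and 2.9, 2.29 and 5.57 CPM across cord samples, highest in DRG sample 1 (log2 difference 2.81 ± 0.54, and 2.16 without it). The small heat shock protein Hspb1 was at 42.04 ± 3.97 CPM in DRG against 6.9 ± 1.62 CPM in cord (log2 difference 2.61 ± 0.15). Gap43, of growing axons, was at 179 ± 4.56 CPM in DRG against 116 ± 12.7 CPM in cord (log2 difference 0.63 ± 0.10). Npy, which injured large sensory neurons are known to switch on, was at 1.3, 0.724 and 0.446 CPM in DRG and 14.6, 16.6 and 12.3 CPM across cord samples. Ecel1 was at 10.2, 1.11 and 2.38 CPM in DRG and 40.96, 45.01 and 37.1 CPM across cord samples. Both were lower in DRG. Because every sample had the same treatment, a tissue difference in such genes says nothing about a response to PTX.

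Immediate early genes, which neurons and other cells switch on within minutes of activity, were even in number, with 11 of 36 tested genes higher and 11 lower (median 0.029). The 61.1% called was near the 59.6% of all tested genes. Npas4, Arc and Fos were among the lower genes. Npas4 was at 0.357, 0.676 and 0.446 CPM in DRG and 13.1, 10.8 and 11.9 CPM across cord samples. Arc was at 6.43, 5.45 and 5.5 CPM in DRG and 49.9, 48.2 and 41.7 CPM across cord samples. Fos was at 7.19, 6.71 and 9.11 CPM in DRG and 31.9, 38.01 and 25.7 CPM across cord samples. Their log2 differences were −4.59 ± 0.30, −3.01 ± 0.25 and −2.06 ± 0.19, with all DRG samples below all cord samples. Egr1 was lower, with a log2 difference of −1.32 ± 0.17. Egr2, which is also the master factor of peripheral myelin, was higher (log2 difference 1.98 ± 0.33), as were Nr4a1 (log2 difference 1.24 ± 0.21), Jun (log2 difference 1.09 ± 0.16) and the phosphatase Dusp5 at 9.17 ± 2.48 CPM in DRG against 1.17 ± 0.316 CPM in cord (log2 difference 2.95 ± 0.30). Per1, the member with the most reads that was not called, was at 87.7 ± 24.6 CPM in DRG against 106 ± 23.5 CPM in cord (adjusted p = 0.293). Per1 was called lower with DRG sample 2 and spinal cord sample 3 left out (−0.64 on the log2 scale, adjusted p = 0.0142) and with DRG samples 1 and 2 left out (−0.71, adjusted p = 0.0457).

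A further 4 lists measured transcripts of other tissues. Skeletal muscle genes were called higher in DRG in 18 of 25 tested cases and lower in 1, with a median of 3.27, but the DRG samples differed widely. Myh4, a fast myosin, was at 149, 189.9 and 5.5 CPM in DRG and 13.3, 1.49 and 1.55 CPM across cord samples. Atp2a1, the muscle calcium pump, was at 144, 235 and 5.94 CPM in DRG and 11.9, 3.22 and 3.21 CPM across cord samples. DRG samples 1 and 2 were high, and DRG sample 3 lay within the range of the cord samples for both. The number called higher was 6 without spinal cord sample 3, 2 without DRG samples 1 and 2 together, 1 without DRG sample 2 and spinal cord sample 3, and 4 with limma-voom, and the number lower was 3 without DRG sample 2. The Myh4 call was lost without DRG sample 1 (adjusted p = 0.0738), DRG sample 2 (adjusted p = 0.0724), spinal cord sample 2 (adjusted p = 0.0841) or spinal cord sample 3 (adjusted p = 0.107), and the Atp2a1 call without spinal cord sample 3 (adjusted p = 0.0627). With DRG samples 1 and 2 left out the difference of Atp2a1 was −0.036. Pygm, muscle glycogen phosphorylase, which astrocytes also express, was lower at 39.9 ± 30.2 CPM in DRG against 229 ± 23.9 CPM in cord (log2 difference −2.52 ± 0.64).

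Red cell and marrow genes were mostly not called, with 1 of 19 higher and 2 lower, and spinal cord sample 1 was the highest of the cord samples for all 19. Beta-s, a haemoglobin gene, was at 82.2, 66.9 and 50.05 CPM in DRG and 443, 48.2 and 100.1 CPM across cord samples (adjusted p = 0.135, and adjusted p = 0.0332 without spinal cord sample 2). The 1 gene higher was the marrow gene Ms4a3, at 3.31, 4.1 and 4.46 CPM in DRG and 1.25, 0.233 and 0 CPM across cord samples, and the 2 lower were the proteases Mmp9 (log2 difference −1.29 ± 0.36) and Prtn3 (log2 difference −1.77 ± 0.60). The call of Ms4a3 was lost with DESeq2 (adjusted p = 0.0825) and with DRG samples 1 and 2 left out (adjusted p = 0.0913). Prtn3 lost its call without DRG sample 1, DRG sample 3 or spinal cord sample 1 (adjusted p = 0.0943, 0.0901 and 0.166) and Mmp9 without DRG sample 1 (adjusted p = 0.0512). Between 0 (without DRG sample 1) and 6 (without spinal cord sample 2) were called lower when 1 sample was left out.

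Of 18 tested genes of meninges and choroid plexus 7 were higher and 4 lower (61.1% called, against 59.6% of all tested genes). The water channel Aqp1, which small sensory neurons also make, was at 292, 361 and 323 CPM in DRG and 14.7, 2.43 and 3.73 CPM across cord samples (log2 difference 5.54 ± 0.63, adjusted p = 0.000162). The carrier Igfbp2 was lower (log2 difference −1.76 ± 0.12) and Igf2 was at 82.6 ± 30.3 CPM in DRG against 90.5 ± 30.6 CPM in cord and not called (adjusted p = 0.723). With DRG samples 1 and 2 left out 1 was called higher. The number lower was 2 without DRG sample 2 or without spinal cord sample 3. Ttr, the defining choroid plexus gene, had 26 reads in DRG and 4 in cord and was not tested. Of 21 tested fat and skin genes 8 were higher and 3 lower, and 4 were higher with DRG samples 1 and 2 left out or in a fit of the 6 samples alone. Car3, of fat and muscle, was at 25.3, 39.3 and 8.86 CPM in DRG and 7.15, 4.66 and 4.25 CPM across cord samples. The keratin Krt14 was at 1.02 ± 0.69 CPM in DRG against 0.918 ± 0.522 CPM in cord (adjusted p = 0.807).

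**Figure D5:**
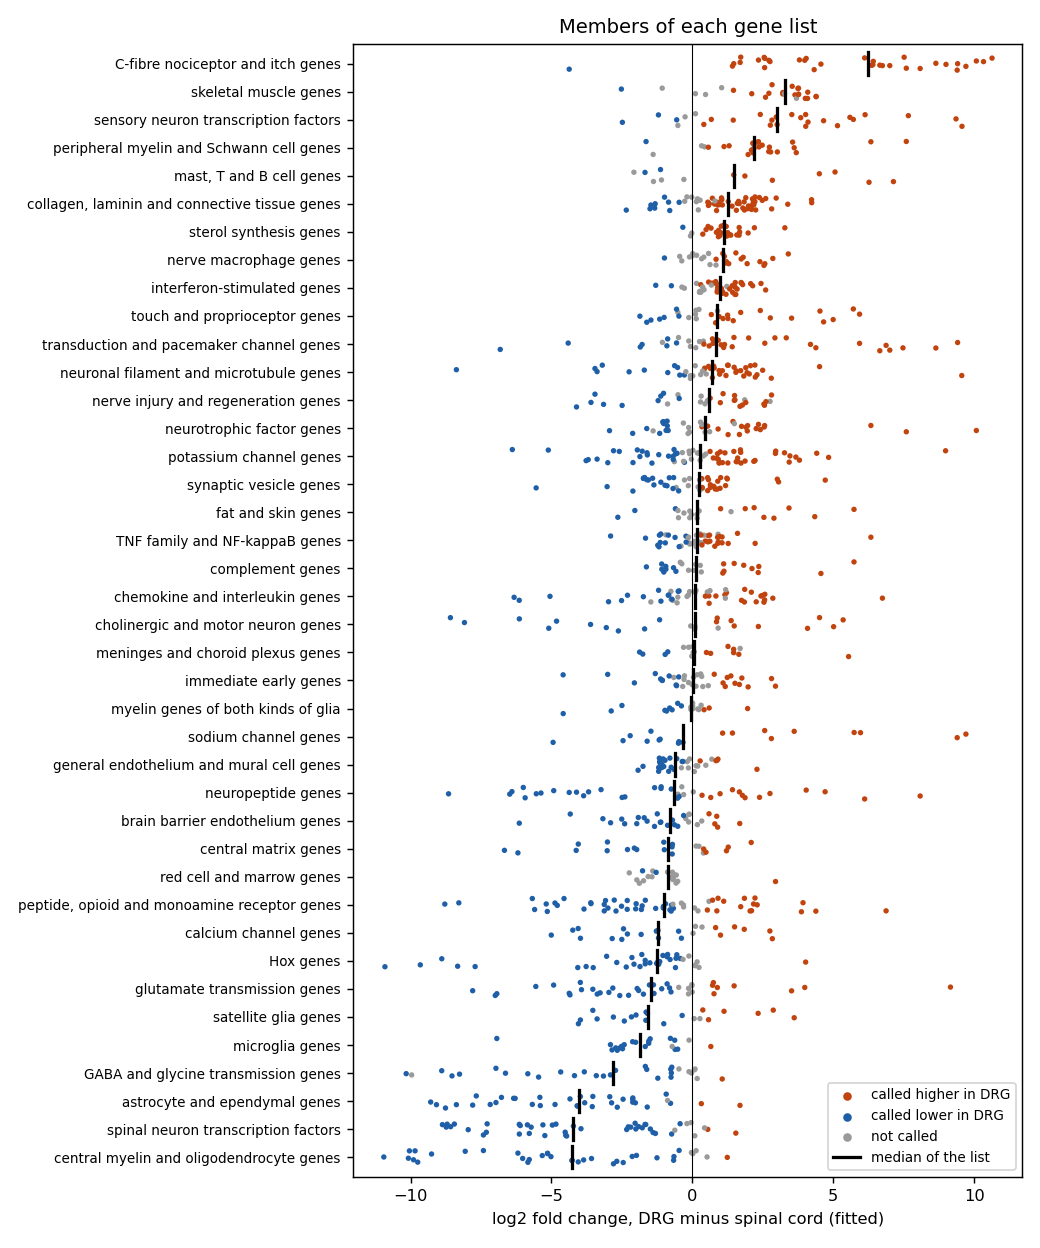
Log2 fold change, DRG minus spinal cord (horizontal axis), of every tested member of 40 gene lists (rows, ordered by median), with 1 point per gene, orange for called higher in DRG, blue for called lower and grey for not called, and a black bar at each median. The medians run from 6.24 for nociceptor genes to −4.27 for central myelin genes, and most channel, cytokine and early gene lists straddle 0.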

How the data were processed

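RNA of DRG, lumbar cord and hind paw skin was made into poly(A)-selected, strand-marking libraries and read from one end, per the labels' protocols. The authors deposited 1 table of raw read counts per gene and sample. The submitters' processing notes name bcl2fastq, TopHat2, HTSeq and the build mm9. Not given in the sources used here were their versions, the strand setting and the treatment of multiply aligned reads, so antisense, overlapping and near-identical genes are uncertain. Summary lines of the counter that name no gene held 42.9% to 43.3% of DRG and 46.2% to 47.7% of spinal cord totals and were left out.

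Counts were analysed with edgeR 4.0.16 (R 4.3.3): its default expression filter by tissue, TMM normalization and the quasi-likelihood test on all 9 samples, with 6 residual degrees of freedom and Benjamini-Hochberg adjustment over 16091 genes. CPM use the deposited totals of all genes multiplied by the TMM factors of the tested genes. A gene with no read in one tissue is given as a bound against 3 reads summed over that tissue, and one with 1 to 3 reads as a ratio of pooled reads with its exact 95% interval. The median of the nociceptor list is 6.07 with such genes at their bound, and no other list median given here changed. The test was also run on simulated counts in which few genes differed, so that run does not cover a comparison as wide as this one. Replicates differed beyond sampling noise (chi-square per degree of freedom 7.3 to 36.7).

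The 40 lists and the members were chosen with earlier results of these data known. They hold 1419 entries, of which 1413 matched, 23 of them by an older symbol. The genes named are, per list, the 4 largest called differences at 10 CPM or more and the uncalled member with the highest CPM, the Hox genes and members of groups of 5 or fewer. All others named were chosen after their values were seen. Some genes that the rule selects are not reported here. Alternatives were 6 samples alone, other normalizations (RLE and upper quartile factors), no filter or a strict one, DESeq2 1.42.0, limma-voom (limma 3.58.1), a replicate block, each replicate left out, and 2 pairs of samples left out. Start-site windows and their sequences come from RefSeq (GRCm38.p6), matched by symbol for 12529 tested genes. Of the 57 motif matches found in the listed genes, 53 belong to start sites whose following bases occur within a GENCODE transcript of the gene. The counts rest on mm9, and no coordinate was carried between the builds.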

Additional observations from a re-analysis of the deposited data

How the results depend on the processing

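Under the 16 alternatives the number of genes called ranged from 7351 (DRG samples 1 and 2 left out, which leaves a single DRG sample assumed to vary like the other groups) to 9781 (DRG sample 2 and spinal cord sample 3 left out), against 9584, and no gene was called in opposite directions. Genes called and at least 2-fold apart numbered 4340 (strict filter) to 4881 (no filter), against 4577. Among these the lower genes outnumbered the higher ones except without spinal cord sample 3 (2424 higher and 2388 lower) and without DRG sample 2 and spinal cord sample 3 (2461 and 2404). With upper quartile factors 4350 genes were called higher and 5301 lower, and the median of all genes was −0.072. Leaving out 1 sample at a time gave 8528 to 9646 calls.

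A fit with the replicate number as a block called 9500 genes, Apod (adjusted p = 0.0487) and Slc6a5 (adjusted p = 0.000132) among them. The labels do not say whether a number marks 1 mouse. The deviations of same-numbered DRG and cord samples correlated at −0.215, 0.372 and 0.272, so the numbers were not taken as pairs, and whether they mark shared mice was not settled. Of the 288 genes named, 258 were called, and 20 of them lost the call in 1 or more alternatives. Of the 30 named genes tested and not called, 11 gained a call in 1 or more alternatives. In the fit of the 6 samples alone Erbb3, Fcgr1, Gabbr2, Myh4, Oprd1, Prtn3 and Srebf1 lost their calls (adjusted p = 0.0521 to 0.09). Without a filter Erbb3, Gabbr2 and Myh4 did so too (adjusted p = 0.0517 to 0.0693). Chst3, Cyp51, Irgm1 and Srebf2 lost theirs when DRG samples 1 and 2 were left out and in no other alternative. Atp2a1 was the one gene to change sign, at −0.036 with DRG samples 1 and 2 left out. Of 1280 list counts under alternatives 65 moved by more than 1.5 times, most of them counts of 5 or fewer. The limit of 3 reads lies at 0.134 CPM or above, so differences among genes near it were not detectable at this depth. The cause of the changes was not tested.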

Other observations

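Genes outside every list, chosen after their values were seen, add to both sides. Tusc5 was at 721, 953 and 844 CPM in DRG and 1.35, 1.63 and 2.98 CPM across cord samples, a log2 difference of 8.74 ± 0.28. Fxyd2, a modulator of the sodium pump, was at 334, 454 and 416 CPM in DRG and 0.90, 1.63 and 1.43 CPM across cord samples, and Acpp, the phosphatase long used to stain nonpeptidergic nociceptors, at 427, 453 and 537 CPM in DRG and 1.6, 1.54 and 2.07 CPM across cord samples. Sncg, a synuclein of peripheral neurons, was at 1625 ± 150.2 CPM in DRG against 95.002 ± 17.9 CPM in cord (log2 difference 4.1 ± 0.17), and Ptgir, the prostacyclin receptor, at 68.1 ± 5.71 CPM in DRG against 0.951 ± 0.35 CPM in cord (log2 difference 6.15 ± 0.25). Rgs4, which dampens G-protein signals, was at 1193 ± 143 CPM in DRG against 96.002 ± 3.97 CPM in cord (log2 difference 3.64 ± 0.12). All of these had every DRG sample above every cord sample.

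On the cord side Klk6, a protease of oligodendrocytes, was at 0.0447, 0.193 and 0.099 CPM in DRG and 73.1, 78.96 and 54.4 CPM across cord samples, and Slc30a3, the zinc transporter of synaptic vesicles, at 0.0447, 0.0965 and 0.0495 CPM in DRG and 76.9, 80.03 and 53.2 CPM across cord samples. Rasgrf1, a Ras activator of neurons, was at 20.1 ± 2.51 CPM in DRG against 703 ± 17.1 CPM in cord (log2 difference −5.13 ± 0.15) and Hap1, the huntingtin-associated protein, at 13.97 ± 2.05 CPM in DRG against 419.5 ± 37.9 CPM in cord (log2 difference −4.91 ± 0.15). Some developmental regulators had no read in any DRG sample. Neurod2 had 353 reads in cord and was at least 126-fold lower in DRG, Sox21 729 reads (at least 261-fold lower) and Dmrt3, of commissural interneurons for gait, 102 reads (at least 36.6-fold lower). In the other direction Hmx1 had 119 reads in DRG and none in cord (at least 36.9-fold higher).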
